A study of Mus musculus with 4 samples.

Results

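The BCL2 family decides whether a cell opens its mitochondria and dies, and 10 of its genes were measured in Ter119+ erythroid cells of mouse bone marrow, in mice labelled Med16 KO and in mice labelled Med16 fl/fl. The members were taken by their symbol among the 56691 genes of the count tables, and each of the 10 symbols named exactly 1 gene. They comprise 3 protective genes (Bcl2l1, Mcl1 and Bcl2), 2 pore-forming effectors (Bax and Bak1) and 5 BH3-only genes (Bcl2l11, Bbc3, Pmaip1, Bid and Bad); the effectors and the BH3-only genes together are the 7 death-promoting members. Poly(A) RNA was sequenced from 2 Med16 KO libraries and 2 Med16 fl/fl libraries, all from bone marrow and all with the time label of 3 weeks. Med16 is a gene of the Mediator tail, through which DNA-bound activators reach the transcription machinery, and fl/fl means that both alleles carry loxP sites. The Cre driver, the deleted exons, the event from which the 3 weeks are counted, the meaning of the letters DK in the titles of the KO libraries, the age and sex of the mice and any pooling of mice were left unstated in the labels. Nothing there says that the 2 libraries of a genotype are separate mice. A p-value here sets a difference against an estimated spread between libraries, part of which may be technical, and need not extend to other mice.

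As background, protective proteins such as BCL-XL (from Bcl2l1) and MCL1 hold the effectors BAX and BAK in check on the outer mitochondrial membrane, and BH3-only proteins such as BIM (from Bcl2l11), PUMA (from Bbc3) and NOXA (from Pmaip1) answer stress by binding the protective proteins or activating the effectors. Once BAX or BAK form pores, cytochrome c leaves the mitochondria and caspases are activated. In the erythroid lineage BCL-XL is the survival protein of late erythroblasts, induced by erythropoietin through STAT5 and by GATA1, while MCL1 is needed in earlier progenitors. Much of the control of these proteins lies in splicing, phosphorylation and turnover, which gene counts do not measure; Bcl2l1, for example, also yields the short death-promoting form BCL-XS, and its reads are counted together with those of BCL-XL.

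The libraries held 6948951 and 6749196 assigned counts in Med16 KO and 7216333 and 7048208 in Med16 fl/fl, and the 10 members took 0.12% of them in each KO library, against 0.114% and 0.112% in the fl/fl libraries. Med16 itself had 16 and 30 counts in the KO libraries, against 164 and 127 in the fl/fl libraries (log2 fold change -2.64, SE 0.34, adjusted p = 4.6e-05 by edgeR's quasi-likelihood test). The 9 erythroid markers were detected in every library and summed to 164224 and 168396 CPM (counts scaled to library size, here with TMM factors) in KO, against 172271 and 165791 CPM in fl/fl; 7 of them were called lower and 2 higher. Other marrow cells' markers also differed by genotype. Of 14 neutrophil markers, 13 were higher and none lower, with a sum of 20267 and 20666 CPM in KO against 14517 and 14335 CPM in fl/fl, while 9 of the 11 tested megakaryocyte and platelet markers were higher and none lower, with a sum of 503 and 504 CPM in KO against 357 and 346 CPM in fl/fl. Of 11 monocyte and macrophage markers, 4 were higher and 1 lower (3154 and 3196 CPM in KO, 2324 and 2263 CPM in fl/fl). Of 10 B cell markers, 1 was higher and none lower (249.8 and 261 CPM in KO, 251 and 261 CPM in fl/fl). No marker was at 0 except Gp1bb, a platelet receptor gene with no count in any library. The marker with the highest CPM of each list was Hba-a1 (alpha globin), S100a9 (neutrophil), Thbs1 (platelet), Lyz2 (monocyte) and Cd79a (B cell). In such bulk samples fewer cells of a type and less RNA per cell cannot be told apart.

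Of the 10 members, all of which passed the filter on low counts, 3 changed in Med16 KO: Bak1 and Mcl1 rose and Bcl2l1 fell. Over all 13052 genes tested, 18.4% were called, 8.5% higher and 9.89% lower, so the members' 3 calls stand near that background of about 2 in 10. The same 3 genes were the only members with an unadjusted p under 0.05. The changes crossed the division into protective and death-promoting genes, since the protective genes Mcl1 and Bcl2l1 moved in opposite directions. The median log2 fold change was 0.20 over the 10 members, 0.21 over the 3 protective and 0.18 over the 7 death-promoting members, against 0.02 over all genes tested. The protective and death-promoting medians are the values of single genes, Mcl1 and Bbc3. The libraries of the genotypes did not overlap for 5 members, 4 higher and 1 lower in KO, while this held for 57.6% of all genes tested, 29.4% higher and 28.2% lower. Bak1 and Mcl1 moved the way of 3 marker sums, those of neutrophils, of megakaryocytes and platelets, and of monocytes and macrophages. Bcl2l1 moved the way of 7 of the 9 erythroid markers, while the other 2, Hba-a1 and Alas2, rose. The erythroid sums overlapped between genotypes. Most of each sum was Hba-a1 and Hbb-bs, which moved in opposite directions (log2 fold changes 0.21 and -0.17), so the sums say little about the other erythroid markers. The part of other cells in the changes of these members was not tested.

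**Figure D1:**
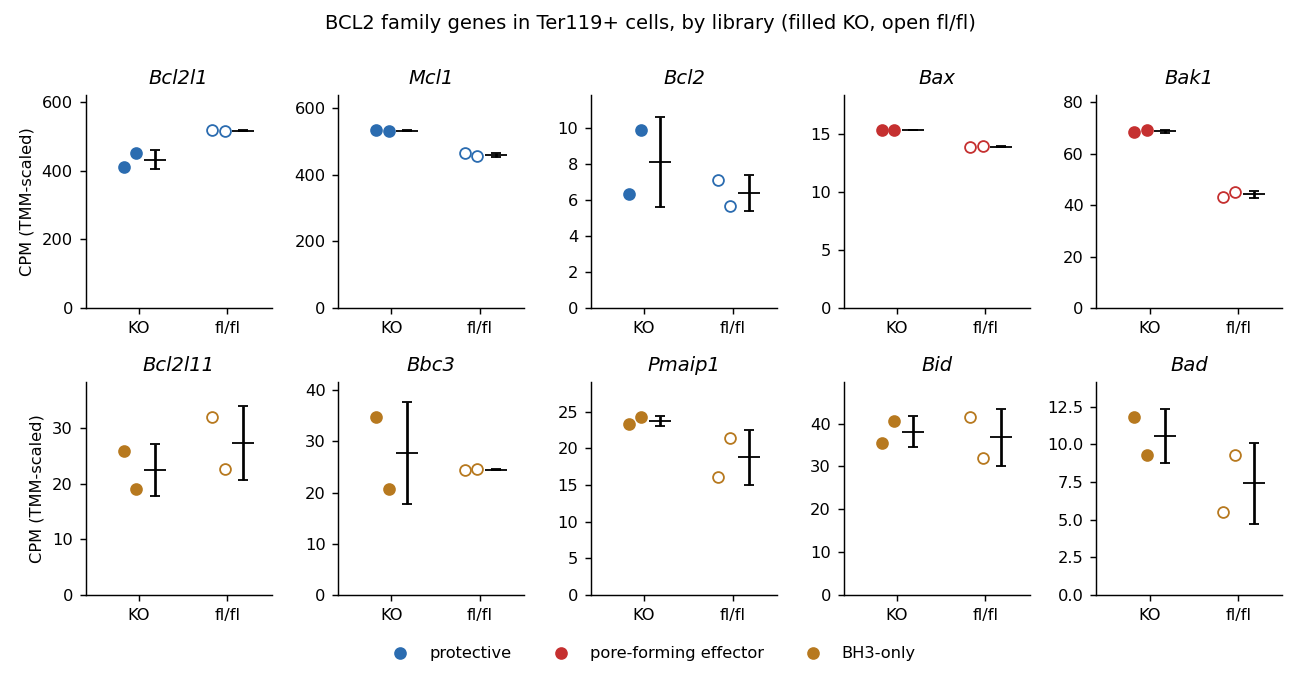
TMM-scaled CPM of each BCL2 family gene in the 2 Med16 KO libraries (filled points) and the 2 Med16 fl/fl libraries (open points), with the mean and SD of each genotype as a bar; colours give the role of the gene and each vertical axis starts at 0. Bak1 and Mcl1 lie higher in both KO libraries, Bcl2l1 lies lower in both, and Bbc3 differs more within KO than between genotypes.

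Bcl2l1 and Mcl1 carried most of the family's reads, 81.1% and 82.5% of the members' counts in the KO libraries and 84.2% and 84.7% in the fl/fl libraries. Bcl2l1, the gene of BCL-XL, had 2939 and 3072 counts in KO, against 3665 and 3562 counts in fl/fl, which is 413 and 452 CPM in KO and 519 and 516 CPM in fl/fl. Both KO libraries were below both fl/fl libraries, and the spread was wider within KO. Bcl2l1 averaged 432 ± 27.7 CPM in KO and 518 ± 1.66 CPM in fl/fl (mean ± SD, n = 2 libraries each, as in all such values), and fell by 0.26 on the log2 scale (SE 0.06, 95% interval -0.38 to -0.14, adjusted p = 0.0035 by edgeR's quasi-likelihood test with Benjamini-Hochberg adjustment over all genes tested). With an offset for GC content the fall was larger, at -0.44.

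Mcl1 encodes a short-lived protective protein that must be made continually. It had 3795 and 3605 counts in KO, against 3272 and 3134 counts in fl/fl, or 533 and 530.3 CPM in KO and 463 and 454 CPM in fl/fl. Both KO libraries were above both fl/fl libraries. Mcl1 averaged 532 ± 1.85 CPM in KO and 459 ± 6.20 CPM in fl/fl and rose by a log2 fold change of 0.21 (SE 0.05, 95% interval 0.11 to 0.32, edgeR adjusted p = 0.0067). The Mcl1 call was lost without fl/fl replicate 1 (0.21, adjusted p = 0.064 by edgeR) and without fl/fl replicate 2 (0.19, adjusted p = 0.126).

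Within each library the counts of Mcl1 and Bcl2l1 can be divided without any scaling between libraries. The ratio of Mcl1 to Bcl2l1 counts was 1.29 and 1.17 in KO, against 0.893 and 0.880 in fl/fl, a difference of 0.47 on the log2 scale. Both KO libraries were above both fl/fl libraries. With 2 libraries against 2 the exact permutation test could not go below its two-sided p = 0.333, which it gave here. Both genes were called, in opposite directions, so the ratio restates their changes and is no further evidence. The summed level of the 3 protective genes was 952 and 992 CPM in KO and 989 and 977 CPM in fl/fl, so the sum overlapped between genotypes while its makeup differed.

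The sequence before the annotated start of both genes is shown because they are the abundant protective pair that moved in opposite directions, and that of Bcl2l11 because, of the 9 windows searched, 1 for each member found in the table, it alone held the forkhead letters. All are from RefSeq on build GRCm38.p6, another build than the GRCm39 of the counts, 5′ to 3′ on the strand of the gene, and each gives the 250 bases before the most upstream start. Capitals mark matches on either strand to 7 motifs of factors that act on these genes or in erythroid cells, namely for GATA1 the letters AGATAA, for STAT5 TTCNNNGAA, for FOXO3 GTAAACA, for ATF4 TGANGCAA, for MYC CACGTG, for E2F1 TTTNGCGC and for KLF1 CCNCNCCC. Starts further downstream are not shown. Windows lie at chr2:152831729-152831978 on the minus strand, chr3:95658471-95658720 on the plus strand and chr2:128125788-128126037 on the plus strand.
Bcl2l1: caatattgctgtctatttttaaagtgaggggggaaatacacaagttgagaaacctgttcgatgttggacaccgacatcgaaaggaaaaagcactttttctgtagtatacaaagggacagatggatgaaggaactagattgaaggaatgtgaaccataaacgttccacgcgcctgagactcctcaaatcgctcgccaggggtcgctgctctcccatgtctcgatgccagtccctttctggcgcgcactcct
Mcl1: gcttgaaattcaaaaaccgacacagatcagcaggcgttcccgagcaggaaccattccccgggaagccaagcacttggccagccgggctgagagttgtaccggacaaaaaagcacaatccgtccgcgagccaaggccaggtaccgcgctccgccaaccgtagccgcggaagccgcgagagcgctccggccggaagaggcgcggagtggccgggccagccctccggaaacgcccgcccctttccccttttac
Bcl2l11: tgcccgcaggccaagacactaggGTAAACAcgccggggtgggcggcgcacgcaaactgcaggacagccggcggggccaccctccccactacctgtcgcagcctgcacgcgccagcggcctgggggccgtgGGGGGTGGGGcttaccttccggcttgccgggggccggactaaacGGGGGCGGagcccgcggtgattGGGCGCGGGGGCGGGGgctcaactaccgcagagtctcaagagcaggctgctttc

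The Bcl2l1 and Mcl1 windows held none of the 7 motifs. The Bcl2l11 window held GTAAACA at position -227 from the start, letters found in 3.17% of the 32851 windows of this length in the table, and CCNCNCCC at 6 places, some of which overlap, letters found in 45.9% of them. The other motifs were found in 9.99% (AGATAA), 7.02% (TTCNNNGAA), 3.12% (TGANGCAA), 6.02% (CACGTG) and 1.13% (TTTNGCGC) of all windows. RefSeq windows were found for 9 of the 10 members. Among the 6 others, CACGTG was in the window of Bax at position -9, and CCNCNCCC was in those of Bcl2, Bax, Bbc3, Bid and Bad, with 3, 4, 8, 2 and 1 matches. The Bak1 window, which lies wholly in annotated exons of Bak1 and Ggnbp1, held none of the 7. A match is a description of letters and not a bound site, and a missing match says only that these letters are not in this window.

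Bcl2, the founding protective gene of the family, was sparse in these cells, with 45 and 67 counts in KO and 50 and 39 counts in fl/fl. Its libraries overlapped between genotypes (6.32 and 9.86 CPM in KO, 7.08 and 5.66 CPM in fl/fl), and its log2 fold change of 0.34 did not pass the test (95% interval -0.44 to 1.12, edgeR adjusted p = 0.587). At this depth the interval includes changes as large as that of Bak1 upward and that of Bcl2l1 downward.

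Bak1 showed the largest change among the called members. This effector gene, whose protein sits on the mitochondrial membrane and is held by BCL-XL and MCL1, had 486 and 470 counts in KO, against 306 and 312 counts in fl/fl. That is 68.2 and 69.1 CPM in KO and 43.3 and 45.2 CPM in fl/fl, with both KO libraries above both fl/fl libraries. Bak1 averaged 68.7 ± 0.629 CPM in KO and 44.3 ± 1.36 CPM in fl/fl and rose 1.55-fold (log2 fold change 0.63, SE 0.12, 95% interval 0.37 to 0.90, edgeR adjusted p = 0.0018). On the GENCODE M21 annotation, 2 genes named Ggnbp1 on the opposite strand overlap 18.2% and 7.35% of the exon length of Bak1. Ggnbp1, named here for its overlap, had 253 and 202 counts in KO, against 159 and 141 counts in fl/fl, and rose by 0.60 (SE 0.19, edgeR adjusted p = 0.034). With the strand setting of the counting unknown, reads in the overlap cannot be told apart, and the Bak1 value is uncertain to that extent.

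Bax, the cytosolic partner effector, had 109 and 104 counts in KO and 98 and 96 counts in fl/fl, or 15.3 CPM in both KO libraries against 13.9 CPM in both fl/fl libraries. The KO libraries were slightly above the fl/fl libraries, but the log2 fold change of 0.14 did not pass the test (SE 0.24, 95% interval -0.37 to 0.65, edgeR adjusted p = 0.757). The ratio of Bak1 to Bax counts was 4.46 and 4.52 in KO, against 3.12 and 3.25 in fl/fl (0.49 on the log2 scale, exact permutation two-sided p = 0.333, the smallest it allows).

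**Figure D2:**
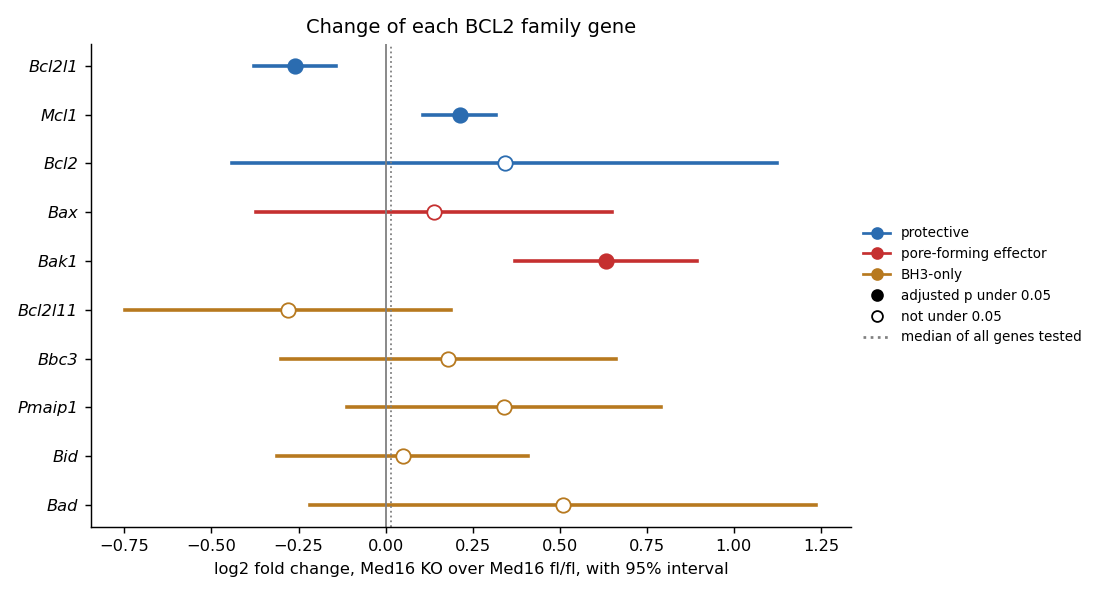
Log2 fold change of each member, Med16 KO over Med16 fl/fl, as a point with its 95% interval from edgeR's quasi-likelihood fit; filled points have an adjusted p under 0.05 and the dotted line is the median of all genes tested (0.02). Bak1 (0.63) and Mcl1 (0.21) lie above 0 and Bcl2l1 (-0.26) below it, while the intervals of the other 7 genes include 0.

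None of the 5 BH3-only genes passed the test, and none had an unadjusted p under 0.05 with edgeR or an adjusted p under 0.05 with DESeq2. Over all genes tested, 18.4% were called with edgeR and 13.8% with DESeq2, so none of 5 stands near that background. Bcl2l11, the gene of BIM and a known target of FOXO3, had 184 and 130 counts in KO and 226 and 156 counts in fl/fl, or 25.8 and 19.1 CPM in KO and 32.0 and 22.6 CPM in fl/fl. The genotypes overlapped, and the log2 fold change was -0.28 (95% interval -0.75 to 0.19, edgeR adjusted p = 0.437). Single libraries moved it: it was -0.02 without fl/fl replicate 1, -0.52 without fl/fl replicate 2 and -0.09 without KO replicate 2, none of which passed, and -0.53 without KO replicate 1 (edgeR adjusted p = 0.037).

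Bbc3, the gene of the p53 target PUMA, had 247 and 140 counts in KO and 172 and 169 counts in fl/fl, or 34.7 and 20.6 CPM in KO and 24.3 and 24.5 CPM in fl/fl. The KO libraries lay on both sides of the fl/fl libraries, with a coefficient of variation of 36.1% in KO and 0.45% in fl/fl. Its log2 fold change of 0.18 (95% interval -0.30 to 0.66, edgeR adjusted p = 0.654) rested on single libraries: it was -0.26 without KO replicate 1 (adjusted p = 0.367) and 0.49 without KO replicate 2 (adjusted p = 0.028).

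Pmaip1, the gene of NOXA, whose protein binds MCL1, had 166 and 165 counts in KO, against 114 and 148 counts in fl/fl. Both KO libraries (23.3 and 24.3 CPM) were above both fl/fl libraries (16.1 and 21.5 CPM), and the log2 fold change of 0.34 did not pass the test (95% interval -0.11 to 0.79, edgeR adjusted p = 0.31). It was 0.13 without fl/fl replicate 1 and 0.55 without fl/fl replicate 2, and passed in neither fit. Bid, which links death receptors to the mitochondria after caspase cleavage, had 35.5 and 40.6 CPM in KO and 41.5 and 32.0 CPM in fl/fl. The genotypes overlapped, with a log2 fold change of 0.05 (95% interval -0.31 to 0.41, edgeR adjusted p = 0.89). Bad, the BH3-only gene whose protein is silenced by phosphorylation downstream of survival signals, had 84 and 63 counts in KO and 39 and 64 counts in fl/fl, or 11.8 and 9.27 CPM in KO and 5.52 and 9.28 CPM in fl/fl. Its libraries overlapped between genotypes, and its log2 fold change of 0.51 did not pass the test (95% interval -0.22 to 1.24, edgeR adjusted p = 0.348). It was 0.17 without fl/fl replicate 1 and 0.92 without fl/fl replicate 2, and passed in neither fit. Genes on the opposite strand overlap 17.7% of the exon length of Bid (Bcl2l13) and 20.5% of that of Bad (Gpr137), so both values are uncertain to that extent. An antisense gene overlaps 6.09% of that of Bcl2, and a gene without counts 12.2% of that of Bax.

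Set side by side, the death-promoting members summed to 215 and 198 CPM in KO, against 177 and 169 CPM in fl/fl. Bak1 alone accounted for most of that difference, with 68.2 and 69.1 CPM in KO against 43.3 and 45.2 CPM in fl/fl. Bax was at 15.3 CPM in both KO libraries against 13.9 CPM in both fl/fl libraries. The 2 effectors summed to 83.6 and 84.4 CPM in KO against 57.2 and 59.2 CPM in fl/fl. The BH3-only sums overlapped (131 and 114 CPM in KO, 119 and 109.9 CPM in fl/fl). Dividing the counts of the protective by those of the death-promoting members gave 4.43 and 5.003 in KO, against 5.60 and 5.78 in fl/fl. The ratio was lower in both KO libraries, by 0.27 on the log2 scale. The ratio of Bcl2l1 to Bak1 counts differed more, at 6.05 and 6.54 in KO against 11.98 and 11.42 in fl/fl (-0.90 on the log2 scale), and that of Mcl1 to Bak1 counts was 7.81 and 7.67 in KO against 10.69 and 10.045 in fl/fl (-0.42). The exact permutation test gave a two-sided p = 0.333 for each of these 3 ratios, the smallest that 2 against 2 libraries allow. Such ratios depend on transcript lengths, so their size is not a ratio of molecules, and only their difference between genotypes can be read. Bcl2l1, Mcl1 and Bak1 are the 3 called members, so ratios between them restate those changes and are no further evidence.

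**Figure D3:**
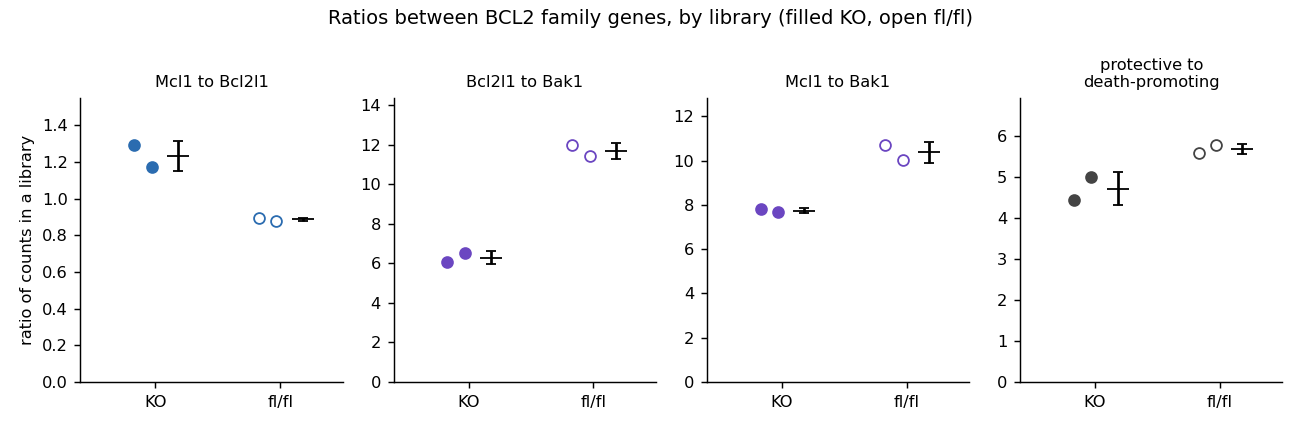
Ratios of counts within each library for Mcl1 to Bcl2l1, Bcl2l1 to Bak1, Mcl1 to Bak1 and the 3 protective to the 7 death-promoting members, in Med16 KO (filled points) and Med16 fl/fl (open points), with the mean and SD of the 2 libraries as a bar. The ratio of Mcl1 to Bcl2l1 is higher in both KO libraries (1.29 and 1.17 against 0.893 and 0.880), and the other 3 ratios are lower in both KO libraries.

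Levels of different members can be compared only per length, and here each CPM value was divided by the kilobases of all annotated exons of the gene. On that scale the order of the mean levels in KO was Mcl1 (156 ± 0.542 CPM per kilobase), Bcl2l1 (94.3 ± 6.04), Bak1 (28.5 ± 0.262), Bbc3 (13.0 ± 4.69), Bid (10.7 ± 1.01), Bax (9.71 ± 0.0035), Pmaip1 (8.71 ± 0.248), Bad (4.12 ± 0.699), Bcl2l11 (2.80 ± 0.591) and Bcl2 (0.883 ± 0.273). The same order held in fl/fl except that Bcl2l11 (3.40 ± 0.826) stood above Bad (2.89 ± 1.04), with 134 ± 1.81 CPM per kilobase for Mcl1, 113 ± 0.361 for Bcl2l1, 18.4 ± 0.564 for Bak1 and 0.696 ± 0.11 for Bcl2. Bbc3 and Bid overlapped in both genotypes, as did Bcl2l11 and Bad in fl/fl, while the libraries of all other neighbours in the order were separate. The first place depends on the length used, as does the order of Bbc3 and Bid. Per kilobase of the longest transcript, Bcl2l1 stood above Mcl1, with 168 against 156 CPM per kilobase in KO and 202 against 134 in fl/fl. Bid then stood above Bbc3, with 15.8 against 15.2 in KO and 15.2 against 13.5 in fl/fl. The death-promoting genes were all below both Mcl1 and Bcl2l1 with either length, and Bcl2 was the lowest member with either.

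Of 15 other BCL2 family genes, 8 were tested, and Bcl2l13, a mitochondrial membrane protein that acts as a receptor for mitophagy, fell to 143 ± 3.87 CPM in KO, against 180 ± 6.67 CPM in fl/fl (log2 fold change -0.34, SE 0.08, edgeR adjusted p = 0.0058). That call was lost without fl/fl replicate 1 (-0.31, edgeR adjusted p = 0.116). None of the 8 was called higher by edgeR or by DESeq2, which gave Bcl2a1d no adjusted p, and 2 had an unadjusted p under 0.05 with edgeR. The 1 fall among 8 stands beside 18.4% of all genes called by edgeR and 13.8% by DESeq2. In edgeR fits 1 was called higher with the replicate block and with an assumed biological coefficient of variation of 0.2. There 21.2% and 4.75% of all genes were called. Their median log2 fold change was -0.01, against 0.02 over all genes. The highest CPM was that of Bnip3l, the receptor that removes mitochondria from maturing red cells, with 1315 ± 32.6 CPM in KO and 1386 ± 9.32 CPM in fl/fl (-0.08, edgeR adjusted p = 0.186). It was called lower with a transcript length offset (-0.12, edgeR adjusted p = 0.031) and without KO replicate 2 (-0.11, edgeR adjusted p = 0.048), and stood at 0.09 with a GC content offset. Bcl2a1d, a protective gene of myeloid cells, had 17 and 18 counts in KO, against 0 and 5 counts in fl/fl, and was not called (edgeR adjusted p = 0.073); it has near-identical copies and its counts are uncertain. It passed with the replicate block (edgeR adjusted p = 0.043), with the assumed coefficient of variation (edgeR adjusted p = 0.00099), and without KO replicate 1 or 2 (edgeR adjusted p = 0.025 and 0.044). Its direction was that of the neutrophil markers, and their part in it was not tested. Bcl2l10, Bcl2l14, Hrk and Bcl2a1b had no count in any library, where 3 counts would be 0.421 to 0.441 CPM.

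A list of 20 genes of mitochondrial execution held genes of the steps after the pore and the outer membrane channel genes Vdac1, Vdac2 and Vdac3. Of the 20, 3 fell and 1 rose, so 4 of 20 were called against a background of 18.4%. Their median log2 fold change was -0.06, against 0.02 over all genes. None of the Vdac genes was called. The calls of this list became more numerous when either KO library was left out and fewer when either fl/fl library was, as did those of all genes. Apaf1, the scaffold of the apoptosome that cytochrome c assembles, fell to 60.1 ± 0.549 CPM in KO, against 81.0 ± 0.551 CPM in fl/fl (log2 fold change -0.43, SE 0.11, edgeR adjusted p = 0.011). Of the caspase inhibitor family, Birc5 fell to 225 ± 8.48 CPM in KO, against 315 ± 1.69 CPM in fl/fl (-0.49, SE 0.06, edgeR adjusted p = 4.1e-05), and Birc6 fell by 0.37 (SE 0.09, edgeR adjusted p = 0.0088). Birc5 encodes survivin, which also works in chromosome segregation, and it had the highest CPM of this list. The gene that rose, named after its value was seen, was Htra2 (0.25, edgeR adjusted p = 0.042), a mitochondrial protease that neutralises caspase inhibitors once released. The cytochrome c gene Cycs and the initiator caspase gene Casp9, chosen after their values were seen, had log2 fold changes of -0.10 and -0.02 that did not pass the test. The calls of Apaf1 and Birc6 were lost when either fl/fl library was left out, and that of Birc6 also with a transcript length offset (-0.14). No gene of the list was called higher with DESeq2's test, with a transcript length offset or with no filter on low counts. With an assumed biological coefficient of variation of 0.2, no gene of the list was called in either direction. The Htra2 call was lost in each of these settings and when either fl/fl library was left out.

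None of the 10 tested genes of the death receptor branch was called by edgeR or by DESeq2, which gave Cradd no adjusted p. Over all genes tested, 18.4% were called by edgeR and 13.8% by DESeq2. With edgeR 1 gene of the list had an unadjusted p under 0.05, and the list's median log2 fold change was 0.06. Calls in the list appeared when either KO library was left out, where more of all genes were called too. The smallest adjusted p was that of Casp2, with 82.1 ± 5.84 CPM in KO and 97.3 ± 2.0 CPM in fl/fl (log2 fold change -0.25, edgeR adjusted p = 0.11), which also had the highest CPM of the list. Tnfrsf1a, a receptor for TNF, was at 0.25 (edgeR adjusted p = 0.214) and Cradd, an adaptor of caspase 2, at 0.91 (edgeR adjusted p = 0.309). Cradd rested on 1 KO library: it was 1.30 without KO replicate 1 (edgeR adjusted p = 0.045) and 0.35 without KO replicate 2 (edgeR adjusted p = 0.737).

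Of 9 genes whose products set the stability of BCL2 family proteins, 8 were tested, 2 fell and 1 rose, so 3 of 8 were called against a background of 18.4%, with a median log2 fold change of -0.08. Marchf5, a mitochondrial ubiquitin ligase that acts on MCL1 and NOXA, fell to 284 ± 11.2 CPM in KO, against 356 ± 12.1 CPM in fl/fl (log2 fold change -0.33, SE 0.06, edgeR adjusted p = 0.0012). Btrc, the substrate receptor of an SCF ubiquitin ligase, fell to 103 ± 22.7 CPM in KO, against 164 ± 0.648 CPM in fl/fl (-0.67, SE 0.11, edgeR adjusted p = 5.8e-04). Bag6, a chaperone of membrane proteins, rose by 0.29 (SE 0.08, edgeR adjusted p = 0.023), a call lost with a GC content offset (0.02) and without fl/fl replicate 2 (0.17).

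Of 14 tested genes that act upstream of BCL2 family transcription, 5 fell and 1 rose, so 6 of 14 were called against a background of 18.4%, with a median log2 fold change of -0.10. Without fl/fl replicate 1 and 2, 3 and 4 were called lower and none higher, against 9.17% and 8.31% of all genes called. Without KO replicate 1 and 2, 7 and 5 were called lower and 2 higher in each, against 29% and 28.2% of all genes called. Foxo3, an activator of Bcl2l11 and Bbc3, had the smallest adjusted p and the highest CPM, and fell to 389 ± 3.98 CPM in KO, against 575 ± 8.79 CPM in fl/fl (log2 fold change -0.56, SE 0.05, edgeR adjusted p = 1.2e-06). Epor, the erythropoietin receptor, fell to 206 ± 20.7 CPM in KO, against 262 ± 0.794 CPM in fl/fl (-0.34, edgeR adjusted p = 0.0038), and the stress factor Atf4 to 365 ± 6.91 CPM in KO, against 445 ± 5.63 CPM in fl/fl (-0.28, edgeR adjusted p = 0.0014). With a GC content offset these values were -0.60 for Epor and -0.45 for Atf4, and no gene of the list was called higher with that offset or with DESeq2's test. The remaining calls, named to complete the counts after their values were seen, were falls of Gata1 (-0.29) and Ddit3 (-0.58) and a rise of Stat5a (0.64). Trp53, the gene of p53, also named after its value was seen, was at 0.26 and did not pass the test (edgeR adjusted p = 0.129).

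The 3 genes whose pattern over the 4 libraries was most like that of Bcl2l1 were Pcyt1a, which makes a precursor of phosphatidylcholine, Cyb5r3, the cytochrome b5 reductase that keeps haemoglobin reduced in red cells, and Ggnbp2. Likeness was the root mean square distance of log2 CPM centred over the libraries, which was 0.0092 for Pcyt1a, 0.0093 for Cyb5r3 and 0.011 for Ggnbp2, against a median of 0.194 over the 5933 genes compared. Pcyt1a had 213 and 232 CPM in KO and 263 CPM in both fl/fl libraries, and Cyb5r3 had 98.4 and 106 CPM in KO and 123 and 122 CPM in fl/fl. With 4 libraries this is a description of shape only.

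**Figure D4:**
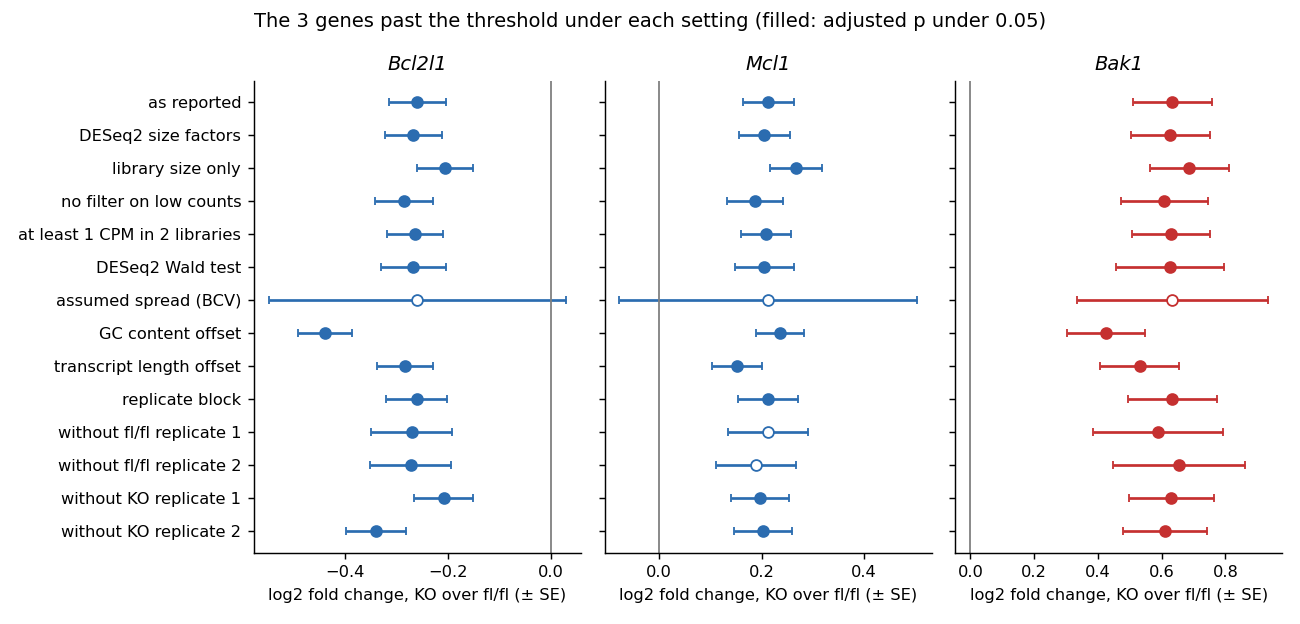
Log2 fold change (Med16 KO over Med16 fl/fl) of Bcl2l1, Mcl1 and Bak1, with its SE as a bar, as reported and under each of 13 alternative settings; filled points have an adjusted p under 0.05. All points keep their side of 0, and the open points show that Mcl1 is lost when either fl/fl library is left out and that all 3 genes are lost when a biological coefficient of variation of 0.2 is assumed.

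The directions of the 3 called genes held under all 13 alternatives. Bak1 ranged from 0.43 with a GC content offset to 0.69 with library size as the only scaling, Bcl2l1 from -0.44 to -0.21 and Mcl1 from 0.15 to 0.27. Bak1 and Bcl2l1 were called under 12 of 13 and Mcl1 under 10 of 13. The exception for all 3 was an assumed biological coefficient of variation of 0.2 in place of the estimated 0.1252, which left 0 members called (edgeR adjusted p = 0.243 for Bak1, 0.703 for Bcl2l1 and 0.763 for Mcl1); 1 member then had an unadjusted p under 0.05. That setting also left no call in the lists of mitochondrial execution, protein stability and upstream regulators, and the call of Bcl2l13 was lost (edgeR adjusted p = 0.598). Among the genes of those lists, the edgeR adjusted p was then 0.305 for Foxo3, 0.394 for Birc5, 0.197 for Btrc and 0.612 for Marchf5. The share of all genes called was 4.75% in that setting, 13.8% with DESeq2's test and 21.2% with a replicate block. It was 9.17% and 8.31% without fl/fl replicate 1 and 2, and 29% and 28.2% without KO replicate 1 and 2.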

How the data were processed

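Poly(A) RNA of Ter119+ bone marrow cells was sequenced in 2 Med16 KO and 2 Med16 fl/fl libraries. The values used are the whole-number counts per gene that the authors deposited, 1 table per library. Tools named in the submitters' processing notes are HISAT2 2.1.0, HTSeq 0.12.4, FastQC 0.11.7, HOMER and DESeq2, with build GRCm39; strand setting and annotation are not given in the sources used. The 5 rows that name no gene, 67.3% to 67.7% of all reads listed per library (35.8% to 36.7% assigned to no feature), entered neither library sizes nor tests.

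With edgeR 4.0.16 in R 4.3.3, filterByExpr selected genes, TMM scaled libraries and the two-sided quasi-likelihood test compared KO with fl/fl without covariates. The spread of a gene rested on 2 residual degrees of freedom and a median of 13.12 prior ones borrowed from other genes. Benjamini-Hochberg adjustment ran over 13052 genes, called under 0.05; 1 count equalled 0.140 to 0.147 scaled CPM, and intervals and limits cover the model's or counting error only. Each SE is the log2 fold change's size over the root of F, and each 95% interval uses the test's degrees of freedom. Exon lengths, GC content and overlapping genes came from GENCODE M21 (GRCm38), matched by identifier. Libraries of a genotype differed by more than sampling noise (chi-square per degree of freedom 6.82 in KO and 2.81 in fl/fl), so each counted as 1 replicate. The procedure was tested on simulated counts. Named in the text are all members, Med16, from each pathway list the 3 genes with the smallest adjusted p and that with the highest CPM, the marker of highest CPM in each list and the 3 genes most like Bcl2l1 with a mean of at least 20 CPM; further names are said to be chosen after their values were seen or for their overlap. The members and lists were chosen with earlier results of these data known. Alternatives were DESeq2 1.42.0 (size factors and test), other scalings and filters, GC and length offsets, an assumed spread, a replicate block and leaving out each library.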

Additional observations from a re-analysis of the deposited data

How the results depend on the processing

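Among the 10 members, 2 were called higher and 1 lower, and 2400 of all genes tested were called. With an assumed biological coefficient of variation of 0.2 these counts were 0, 0 and 620. Leaving out 1 library at a time gave 1 to 3 members higher, 1 to 2 lower and 1158 to 3998 genes called, with the low counts where the remaining spread came from the KO libraries. DESeq2's test called 1795 genes and the same 3 members. The share called higher, 46.2%, became 56.4% when only library size was used for scaling (1365 higher, 1055 lower), which moved the median of all genes to 0.07. Among the members and the genes named by rule, the called Hba-a1 turned sign (0.21, and -0.0013 with a GC content offset), as did these genes not called: Bax -0.17, Bbc3 -0.14 and Bnip3l 0.0943 with a GC content offset, and Bid -0.0049 with a transcript length offset; without 1 library Bcl2 ranged from -0.0252 to 0.62, Bbc3 from -0.26 to 0.49 and Bid from -0.13 to 0.23. The log2 difference of the ratio of protective to BH3-only counts, -0.11, ranged from -0.2408 (without KO replicate 2) to 0.0228 (without KO replicate 1). The cause of these moves was not tested. With the replicate number as a block, 2 members were higher and 1 lower and 2767 genes were called, 2390 of them shared with the 2400. Same-numbered libraries did not deviate together across genes (correlation -0.0041 over 10080 genes). Such a correlation cannot exclude a shared factor that acts on few genes or in differing directions, and the labels name none. At this depth the 95% intervals of Bcl2, Bax, Bbc3, Pmaip1 and Bad, none of them called, include the change of Bak1.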
